A study of Mus musculus with 2 samples.

Results

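The lysosomal hydrolases, their cofactors and the membrane proteins of the lysosome were described in sorted retinal microglia. These 40 genes were chosen by name, with earlier results of these data known: 17 glycosidases and sulfatases, 7 lipid-degrading enzymes and cofactors, 5 other hydrolases and 11 membrane proteins. Of the 40, 39 had a row among the 13549 genes of the count table, and all 39 had 20 or more reads in the libraries together. *Acp5*, a tartrate-resistant acid phosphatase, had no row and was not analysed here.

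Lysosomes are the acidic compartments in which macrophages, microglia included, break down what they have engulfed. Soluble hydrolases are made in the endoplasmic reticulum, carried mostly by mannose 6-phosphate receptors, and act in an acidic lumen bounded by heavily glycosylated membrane proteins. Glycosidases and sulfatases remove sugars and sulfates one after the other from glycoproteins, glycolipids and glycosaminoglycans, so that the lack of a single enzyme stores its substrate. Sphingolipids need small cofactors, the saposins and the GM2 activator, to lift them out of the membrane for their enzymes.

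Both groups came from retinas of CD11c-Cre-gfp;Rosa-TDTom mice at postnatal day 5. In these animals the promoter of CD11c, the integrin subunit encoded by *Itgax*, drives Cre and GFP, and Cre turns on a lasting TdTomato reporter. Cd11c-active cells were GFP+TdTom+ (4041 cells) and Cd11c-lineage cells were GFP-TdTom+ (5441 cells). Both were sorted from a pool of 8 retinas, with 4 female and 4 male, and each gave 1 library, so no comparison below has a replicate check and none carries a p-value. The comparison asks whether cells with the promoter in use differ in lysosomal transcripts from cells that only carry its trace.

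The libraries held 12943998 (Cd11c-active) and 13402625 (Cd11c-lineage) reads. Ratios are Cd11c-active over Cd11c-lineage on the log2 scale, after TMM scaling of library sizes, and CPM is counts per 1000000 reads of the scaled library. Brackets give exact 95% intervals, which cover counting error only. The spread between these libraries was much wider than that error, so each gene was also read against the middle 95% of the ratios of all genes of like read number. That range was -8.02 to 8.31 for genes with 20 to under 200 reads in the libraries together, -4.36 to 7.56 from 200 to under 1000, -1.20 to 1.42 from 1000 to under 5000 and -0.72 to 0.88 from 5000 upwards. A ratio inside its range is not told apart from the spread between the libraries, and in bulk RNA fewer cells of a type and less RNA per cell cannot be told apart either.

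Of 12 microglial markers all had reads in both libraries, with ratios from -0.54 to 0.59 and summed reads of 217107 and 236329. All 8 endothelial markers were higher in Cd11c-active, 5 of them with 0 reads in Cd11c-lineage, and together they took 0.0616% and 0.00772% of reads. Of 7 retinal neuron markers with a row, 6 were lower in Cd11c-active (0.0113% and 0.0229% of reads), as were the 3 border macrophage markers with a row, of which *Lyve1* and *Cd163* were at 0 there (0.00202% and 0.0115%). The 4 Muller glia markers were split, 2 higher and 2 lower, and *Rlbp1* was at 0 in Cd11c-lineage (0.216% and 0.253% of reads, nearly all from *Glul*). The 3 monocyte and neutrophil markers with a row had 35 and 106 reads and the 1 erythroid marker 0 and 31. The part of these other cells in the lysosomal values was not tested.

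The promoters of the genes are shown first, because many lysosomal genes carry an E-box, CACGTG, at the centre of the CLEAR motif that the transcription factor TFEB and its relatives bind. RefSeq promoters (build GRCm38.p6, 250 bases before to 50 after the start site) were matched by symbol for 36 of the 40 genes. *Asah1*, *Cln8*, *Galns* and *Laptm4b* had no entry. The letters CACGTG, which read the same on both strands, were found in promoters of 10 of the 36 genes (27.8%). The share was 8.09% among all 27025 genes with a promoter and 13.6% among the 3755 with at least 1000 reads here. The longer TCACGTGA, which contains CACGTG, was found in 3 of the 36 (8.33%, against 1.12% and 3.22%). The full palindromic CLEAR motif of 10 bases was found in 1, *Cln3* (2.78%, against 0.370% and 1.30%).

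The promoter of *Lamp1*, a main lysosomal membrane glycoprotein, held 4 copies, more than any other of the genes, and is shown whole with CACGTG in capitals (chr8:13158911-13159210, plus strand). The promoter of *Neu1*, the gene with the widest well-measured difference, is shown for comparison and held none in this window (chr17:34931003-34931302, plus strand).
Lamp1: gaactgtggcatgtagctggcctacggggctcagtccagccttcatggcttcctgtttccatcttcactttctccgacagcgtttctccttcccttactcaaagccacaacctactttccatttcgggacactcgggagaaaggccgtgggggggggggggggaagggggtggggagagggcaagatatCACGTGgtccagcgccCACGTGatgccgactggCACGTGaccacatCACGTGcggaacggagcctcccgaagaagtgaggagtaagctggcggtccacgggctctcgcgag
Neu1: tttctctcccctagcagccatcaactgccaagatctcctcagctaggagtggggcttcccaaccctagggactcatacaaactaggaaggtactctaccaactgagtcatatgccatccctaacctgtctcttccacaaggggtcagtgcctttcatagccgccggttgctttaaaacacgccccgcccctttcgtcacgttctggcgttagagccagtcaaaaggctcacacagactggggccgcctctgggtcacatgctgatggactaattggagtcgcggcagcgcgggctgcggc

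For the other 9 genes a window of 30 bases around 1 match each shows what flanks the E-box, again with CACGTG in capitals.
Cln3: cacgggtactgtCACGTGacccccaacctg
Gla: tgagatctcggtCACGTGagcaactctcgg
Clcn7: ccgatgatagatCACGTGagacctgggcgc
Naglu: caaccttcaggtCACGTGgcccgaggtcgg
Gaa: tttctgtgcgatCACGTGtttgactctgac
Sgsh: gggcctgccgtgCACGTGaccgtggggagc
Lgmn: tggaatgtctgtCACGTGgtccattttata
Glb1: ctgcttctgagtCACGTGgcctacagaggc
Arsa: tcaactcagtgtCACGTGttgtctgctcct

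The windows lie at chr7:126583340-126583369 on the minus strand (*Cln3*), chrX:134601182-134601211 on the minus strand (*Gla*), chr17:25133386-25133415 on the plus strand (*Clcn7*), chr11:101070009-101070038 on the plus strand (*Naglu*) and chr11:119267811-119267840 on the plus strand (*Gaa*). Those of *Sgsh* (chr11:119355522-119355551, minus), *Lgmn* (chr12:102439124-102439153, minus), *Glb1* (chr9:114401018-114401047, plus) and *Arsa* (chr15:89477423-89477452, minus) complete the set. *Cln3*, *Gla* and *Clcn7* each held a second match. A match is a description of the letters and not a binding site.

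As a whole the genes took similar parts of both libraries. Their reads summed to 365445 and 380689 (Cd11c-active first), which is 2.82% (Wilson 95% interval 2.81 to 2.83) and 2.84% (2.83 to 2.85) of all reads. Without mitochondrial, ribosomal and 7SK or 7SL genes in the total, the order turned, to 3.11% and 2.95%. The 5 genes with the most reads, *Psap*, *Lgmn*, *Grn*, *Man2b1* and *Laptm5*, made up 71.1% and 72.3% of these sums. Of the 39 genes 26 had a ratio above 0 and 13 below, with a median of 0.13, where 50.2% of all genes with at least 20 reads were above 0. Among the 34 with at least 1000 reads 23 were above 0 and the median was 0.13, against 48.6% above 0 and a median of -0.02 over the 4619 genes of that depth. The split depended on scaling: with library totals 18 of the 39 were above 0 and 21 below, and the median of all 4619 genes moved down by 0.14 with it. With the trend of the ratio with transcript length and GC content removed, 21 of the 39 and 18 of the 34 were above 0, and the medians were 0.07 and 0.04. Relative to the median of all 4619 genes, 23 of the 34 lay above it, a count that scaling cannot change since it moves every gene alike, and 19 with that trend removed.

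Past 2-fold (an absolute log2 ratio of at least 1) lay 2 of the 39 genes, *Neu1* and *Tmem192*, both higher in Cd11c-active, and 0 lower. Over all 13037 genes with at least 20 reads, 44.9% were past 2-fold, 23.3% higher and 21.6% lower. Among the 34 genes with at least 1000 reads 1 was past 2-fold, against 9.57% of all genes of that depth. At a lower threshold of 1.5-fold 7 of the 39 were higher and 4 lower, against 60.1% of all genes with 20 reads or more in either direction. Of the 39, 1 gene, *Neu1*, lay outside the middle 95% of its read class, against 4.97% of all genes.

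**Figure D1:**
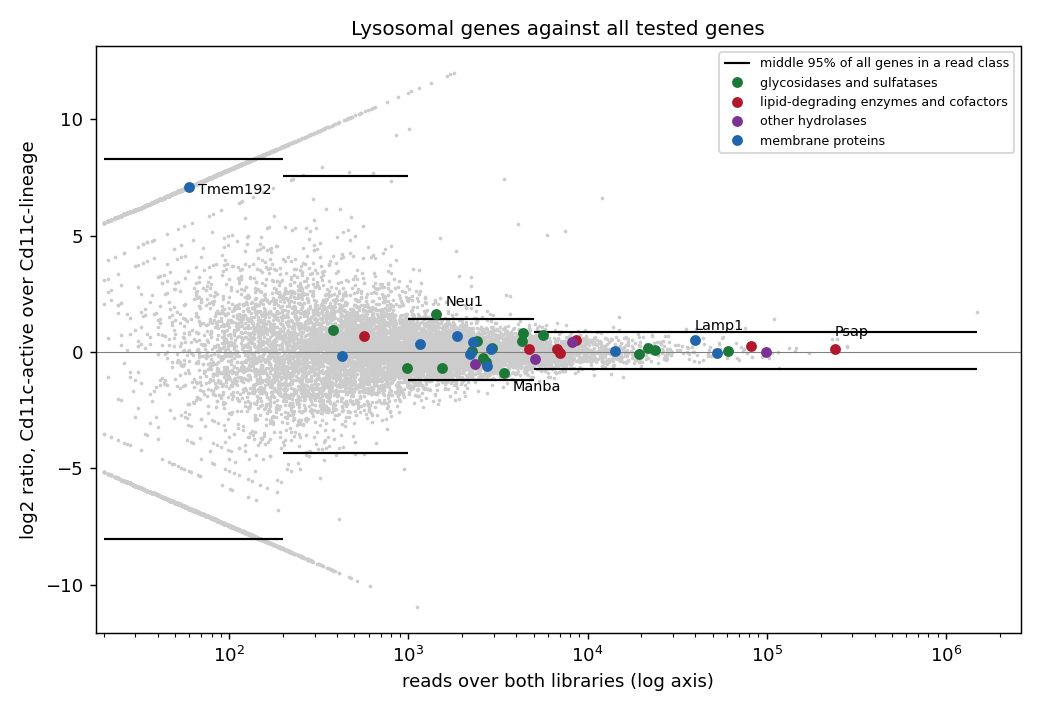
Log2 ratio of Cd11c-active over Cd11c-lineage (vertical) against reads over both libraries (horizontal, log axis) for all genes with 20 reads or more (grey) and the 39 lysosomal genes (coloured by group), with black lines at the middle 95% of all genes in each read class. *Neu1* lies above the line of its class at 1.65 against 1.42, *Manba* at -0.88 lies inside it, and *Psap*, at far more reads, is at 0.13.

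The glycosidases and sulfatases were measured with all 17 members, 11 with a ratio above 0 and 6 below, and a median of 0.08. Their most abundant members differed little. *Man2b1*, lysosomal alpha-mannosidase, had 28586 reads in the Cd11c-active library and 31877 in the other (2315 and 2269 CPM), a ratio of 0.03 (0.01 to 0.05). *Hexa*, the alpha subunit of beta-hexosaminidase that degrades GM2 ganglioside, had 11413 and 12318 reads and a ratio of 0.08 (0.04 to 0.11). *Gusb*, beta-glucuronidase, had 10865 and 10900 reads and a ratio of 0.18 (0.14 to 0.22). These abundant glycosidases were therefore within 1.13-fold between the libraries. The sulfatase with the most reads, *Arsb*, which acts on dermatan and chondroitin sulfate, had 8769 and 10689 reads and a ratio of -0.10 (-0.14 to -0.06).

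*Neu1* (ENSMUSG00000007038), the sialidase that removes terminal sialic acids, stood apart. The Cd11c-active library gave it 1050 reads and the Cd11c-lineage library 381, which is 85.0 and 27.1 CPM. The ratio was 1.65 (1.48 to 1.82), that is 3.13-fold higher in Cd11c-active (2.79-fold to 3.54-fold). It was higher than the ratio of 98.4% of the 500 genes nearest to it in reads. Over all alternatives it lay between 1.51 and 1.65, and its log2 fold change in the authors' deposited table is 1.51. NEU1 protein works in a complex with beta-galactosidase and the protective protein cathepsin A. *Glb1*, which encodes beta-galactosidase, had 1111 and 1504 reads and a ratio of -0.25 (-0.36 to -0.14), and *Ctsa* had 18178 and 18113 reads and a ratio of 0.19 (0.16 to 0.22). The ratios of both partners lay well below that of *Neu1* in these libraries.

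At the other end, *Manba* (ENSMUSG00000028164), the beta-mannosidase that removes the beta-linked mannose of N-glycans, had 1097 and 2306 reads, or 88.8 and 164 CPM. Its ratio was -0.88 (-0.99 to -0.78), or 1.85-fold lower in Cd11c-active, inside the range of its read class. With library totals the ratio was -1.02 and past 2-fold, as in the authors' deposited table (-1.02). Of the other enzymes of N-glycans, *Man2b1* was near 0, and *Fuca1*, the alpha-fucosidase, had 2372 and 1950 reads and a ratio of 0.47 (0.38 to 0.56).

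The enzymes that take heparan sulfate apart, some of which also act on dermatan sulfate, ran in both directions. *Naglu*, the alpha-N-acetylglucosaminidase, had 2650 and 1719 reads and a ratio of 0.81 (0.72 to 0.90). *Sgsh*, the sulfamidase, was sparse, with 239 and 142 reads and a ratio of 0.94 (0.63 to 1.25). *Ids*, the iduronate sulfatase that starts the breakdown, had 1065 and 1646 reads and a ratio of -0.44 (-0.55 to -0.33). *Idua*, the iduronidase of the next step, had 352 and 637 reads and a ratio of -0.67 (-0.86 to -0.48). *Ids* and *Idua*, which act on iduronate, were thus lower in Cd11c-active, and *Naglu* and *Sgsh*, which act on glucosamine, higher, each inside the range of its read class. Outside the set, *Hgsnat*, the membrane acetyltransferase, had 483 and 779 reads and a ratio of -0.50 (-0.67 to -0.34). *Galns*, the galactosamine sulfatase of keratan sulfate, had 1336 and 1080 reads and a ratio of 0.49 (0.38 to 0.61).

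Of the remaining sugar-removing enzymes, *Gaa*, the acid alpha-glucosidase of glycogen, had 3331 and 2311 reads and a ratio of 0.71 (0.64 to 0.79), 1.64-fold higher in Cd11c-active. It was inside the range of its class, whose upper end is 0.88. *Gla*, the alpha-galactosidase of globosides, had 1076 and 1200 reads and a ratio of 0.03 (-0.09 to 0.15). *Galc* and *Arsa* act in sequence on the myelin lipid sulfatide. *Galc*, the galactosylceramidase, had 1470 and 1474 reads and a ratio of 0.18 (0.08 to 0.29). *Arsa*, arylsulfatase A, had 542 and 1006 reads and a ratio of -0.71 (-0.86 to -0.55), or 1.63-fold lower in Cd11c-active, inside the range of its class.

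**Figure D2:**
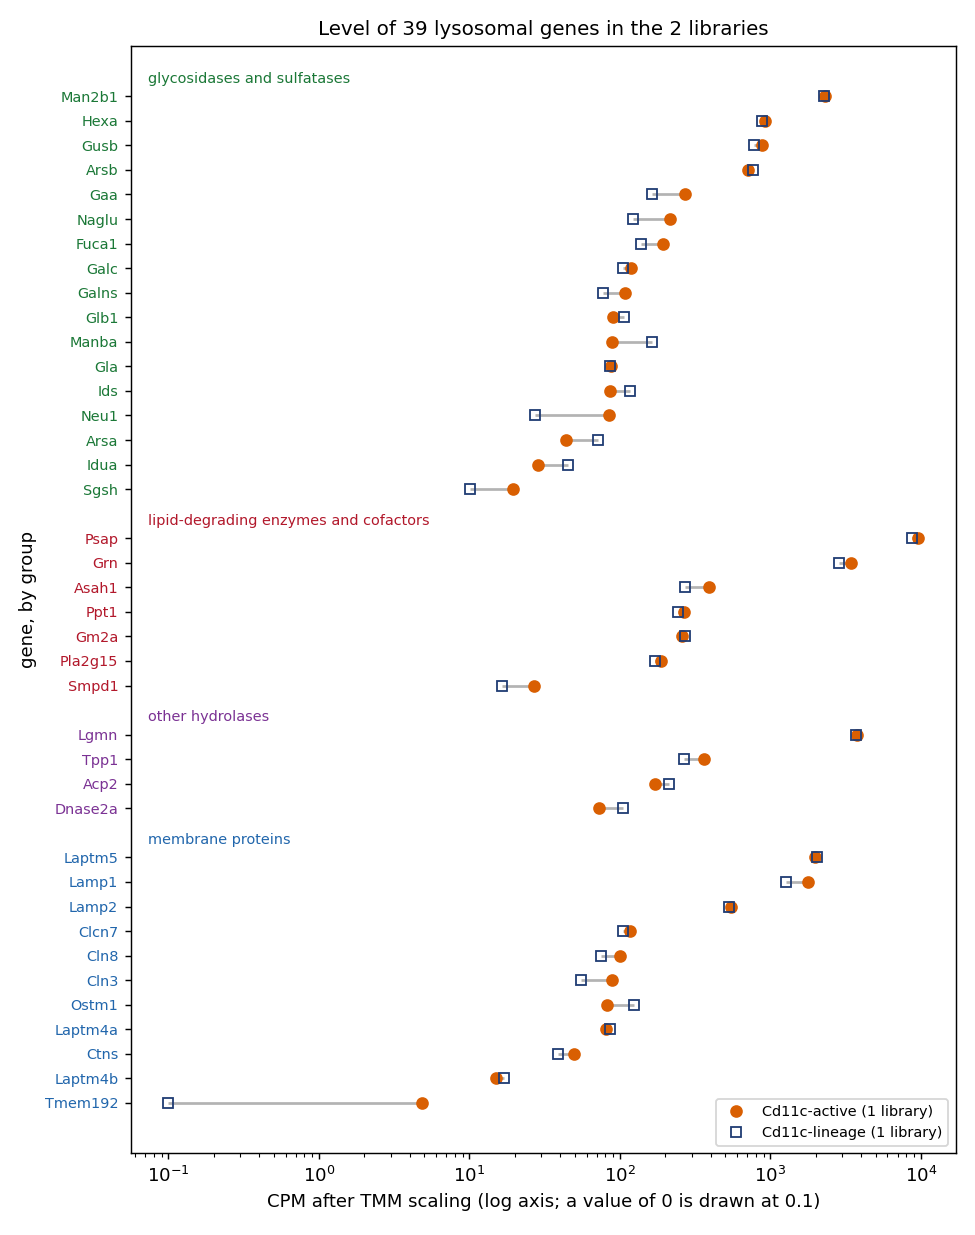
Level of each of the 39 genes in CPM after TMM scaling (horizontal, log axis) in the Cd11c-active library (filled circles) and the Cd11c-lineage library (open squares), 1 library each, in their 4 groups. Most pairs of symbols lie close together, *Psap* is highest at 9573 and 8727 CPM, and *Tmem192* and *Neu1* show the widest gaps.

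The lipid-degrading enzymes and cofactors were measured with all 7 members, 6 with a ratio above 0 and 1 below, and a median of 0.13. None was past 2-fold. *Psap* (ENSMUSG00000004207), the precursor of saposins A to D, had more reads than any other of the genes, 118190 (9573 CPM) in Cd11c-active and 122629 (8727 CPM) in Cd11c-lineage. It alone took 0.913% and 0.915% of all reads, and its ratio was 0.13 (0.12 to 0.14). *Grn*, the progranulin precursor that travels to the lysosome with prosaposin, had 42172 and 40071 reads and a ratio of 0.26 (0.24 to 0.28). *Gm2a*, the GM2 activator that presents the ganglioside to beta-hexosaminidase, had 3200 and 3794 reads and the lowest ratio of the group, -0.06 (-0.13 to 0.01). Of these, *Psap* and *Grn* were among the 3 genes with the highest levels per length of the longest transcript, and *Gm2a* was much less abundant. With library totals *Psap* turned to -0.0030 and with the length and GC trend removed to -0.04, whereas *Grn* was positive throughout (0.02 to 0.26).

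Among the lipid enzymes the ceramidase and the sphingomyelinase, which act on neighbouring steps, were both higher in Cd11c-active. *Asah1*, acid ceramidase, had 4819 and 3824 reads and a ratio of 0.52 (0.46 to 0.58), 1.43-fold. *Smpd1*, acid sphingomyelinase, was sparse, with 331 and 233 reads and a ratio of 0.69 (0.45 to 0.94). Both were inside the range of their class. *Ppt1*, the thioesterase that removes fatty acids from proteins, had 3296 and 3424 reads and a ratio of 0.13 (0.06 to 0.20). *Pla2g15*, the lysosomal phospholipase, had 2306 and 2396 reads and a ratio of 0.13 (0.05 to 0.21). With library totals both were just below 0, at -0.0047 and -0.0050.

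Of the other hydrolases 4 of 5 were measured, 2 with a ratio above 0 and 2 below. *Lgmn*, the asparagine endopeptidase legumain that processes cathepsins, had 46585 and 52245 reads and a ratio of 0.02 (0.0031 to 0.04). *Tpp1*, the tripeptidyl peptidase, had 4457 and 3734 reads and a ratio of 0.44 (0.38 to 0.51). *Acp2*, lysosomal acid phosphatase, had 2111 and 2990 reads and a ratio of -0.32 (-0.40 to -0.23). *Dnase2a*, the nuclease that digests the DNA of engulfed cells, had 893 reads in Cd11c-active against 1463 in Cd11c-lineage and a ratio of -0.53 (-0.65 to -0.40), 1.44-fold lower in Cd11c-active. That ratio was inside the range of its class and negative under every alternative run (-0.66 to -0.52). *Dnase2a* shares 30.0% of its exon bases with *Mast1* on the opposite strand (GENCODE for GRCm38), and *Mast1* itself had 0 and 136 reads. Whether the counting used strand is not given in the sources used here, so reads of such pairs may have been left out or shared. This applies to 14 of the genes, 6 of them over more than 10% of their exon bases (*Acp2*, *Arsa*, *Arsb*, *Dnase2a*, *Hexa* and *Sgsh*), and 1 gene, *Glb1*, overlaps another on its own strand.

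The membrane proteins were measured with all 11 members, 7 with a ratio above 0 and 4 below, and a median of 0.14. *Lamp1* and *Lamp2*, the main glycoproteins of the lysosomal membrane, had different ratios. *Lamp1* (ENSMUSG00000031447) had 22027 reads (1784 CPM) in Cd11c-active and 17776 (1265 CPM) in Cd11c-lineage, a ratio of 0.50 (0.47 to 0.52) or 1.41-fold. *Lamp2*, whose isoforms also serve chaperone-mediated autophagy, had 6748 and 7461 reads and a ratio of 0.04 (-0.01 to 0.09). Both were inside the range for genes of at least 5000 reads. *Laptm5*, a transmembrane protein of haematopoietic cells, had 24344 and 28488 reads and a ratio of -0.04 (-0.06 to -0.02). Its relatives were far less abundant, with *Laptm4a* at 1005 and 1202 reads (-0.07, -0.19 to 0.05) and *Laptm4b* at 186 and 239 (-0.17, -0.46 to 0.11).

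The Batten disease genes *Cln3* and *Cln8* were both higher in Cd11c-active. *Cln3*, whose protein sits in the lysosomal membrane, had 1100 and 773 reads and a ratio of 0.70 (0.56 to 0.83), the highest among the membrane proteins with at least 1000 reads. *Cln8*, which resides in the endoplasmic reticulum and helps lysosomal enzymes leave it, had 1241 and 1054 reads and a ratio of 0.42 (0.30 to 0.54). *Ctns*, the cystine exporter, had 611 and 545 reads and a ratio of 0.35 (0.18 to 0.52). All 3 stayed above 0 under the alternatives run and inside the range of their class.

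*Clcn7*, a chloride-proton exchanger, and *Ostm1*, its obligate beta subunit, had ratios of opposite sign. *Clcn7* had 1433 and 1476 reads and a ratio of 0.14 (0.04 to 0.25). *Ostm1* had 1006 reads in Cd11c-active against 1732 in Cd11c-lineage and a ratio of -0.60 (-0.71 to -0.48), 1.51-fold lower in Cd11c-active. The counting intervals do not overlap, while both ratios are inside the range of their class. *Tmem192*, a small lysosomal membrane protein, had 60 reads in Cd11c-active against 0 in Cd11c-lineage. With 0 counted, up to 3 reads (0.214 CPM) remain possible there, so it was at least 22.8-fold higher in Cd11c-active against that limit, and at least 17.9-fold by the lower end of the exact interval, which also counts the error of the 60 reads. However, 63.0% of all genes with 20 to under 200 reads had 0 in either library and 85.6% were past 2-fold, so this gap is what genes of its depth commonly showed.

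**Figure D3:**
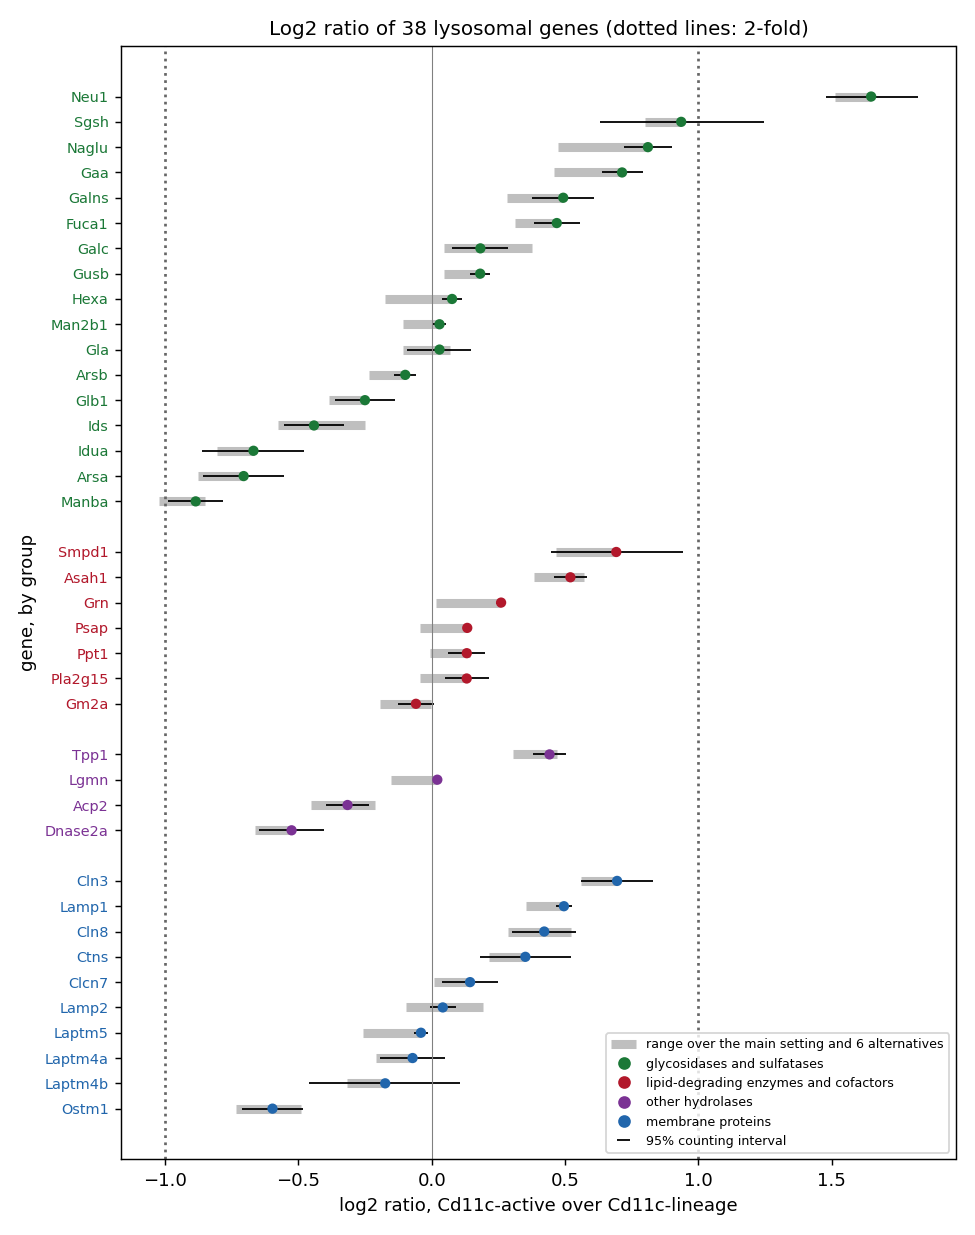
Log2 ratio of Cd11c-active over Cd11c-lineage (horizontal) for 38 genes in their 4 groups, leaving out *Tmem192*, which had 0 reads in Cd11c-lineage. Points are the main values, thin lines 95% counting intervals, grey bars the range over the main setting and 6 alternatives, and dotted lines 2-fold; *Neu1* alone lies past 2-fold by its main value, and the grey bar of *Manba* reaches -1.02.

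Levels of different genes were compared as reads per kilobase of the longest transcript per 1000000 reads (RPKM). On this scale *Psap* was highest in both libraries (3603 RPKM in Cd11c-active and 3285 in Cd11c-lineage), followed by *Lgmn* (1896 and 1868) and *Grn* (1460 and 1219). *Lamp1* came next in Cd11c-active at 800 RPKM, above *Laptm5* at 758 and *Man2b1* at 606. In Cd11c-lineage *Lamp1* stood below both, at 568 RPKM against 780 and 594. *Hexa* (463 and 439), *Gusb* (328 and 289), *Arsb* (176 and 188) and *Lamp2* (152 and 147) held ranks 7 to 10 in both libraries. At the low end stood *Tmem192* at 4.07 RPKM in Cd11c-active and *Sgsh* at 4.44 and 2.32. On this scale the largest moves in rank were those of *Neu1*, 28 in Cd11c-active and 36 in Cd11c-lineage, and *Cln3*, 23 and 31. These moves changed with the length used. Per median transcript length *Neu1* was at 30 and 36 and *Cln3* at 21 and 23, while *Manba* (19 and 11) and *Naglu* (13 and 21) moved further. Per coding length *Neu1* was at 24 and 36, *Cln3* at 27 and 31, *Manba* at 33 and 24 and *Naglu* at 19 and 26. The order near the top depended on the length used. Per median transcript length *Laptm5* was highest in Cd11c-active (5202), followed by *Grn* (4280) and *Psap* (3607), with *Lamp1* at 1253. Per coding length *Psap* was highest (5729), and *Laptm5* (2493) stood above *Grn* (1891) and *Lamp1* (1465). *Laptm5* was thus above *Lamp1* in Cd11c-active with both of these lengths, the reverse of the order with the longest transcript.

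The 10 genes with CACGTG in a promoter were set beside the 25 measured ones that had a promoter without it. Of the 10, 8 had a ratio above 0, with a median of 0.32 and a range of -0.71 (*Arsa*) to 0.94 (*Sgsh*). Of the 25, 15 were above 0, with a median of 0.08. Over all genes with at least 1000 reads the medians were 0.02 for the 510 with CACGTG and -0.02 for the 3245 without, with 268 and 1554 above 0. These counts hold for the main setting. With library totals *Gla* (-0.107) and *Lgmn* (-0.115) fell below 0, and with the length and GC trend removed *Lgmn* did (-0.151). In the latter setting *Naglu*, *Gaa* and *Lamp1* fell to 0.47, 0.46 and 0.35. Genes of the 25 turned too, such as *Man2b1* (-0.107 and -0.056). *Sgsh*, *Naglu*, *Gaa*, *Cln3* and *Lamp1*, whose matches are printed above, were the 5 with the highest ratios of the 10, and *Glb1* and *Arsa* show that the same letters also stood before genes that were lower in Cd11c-active. *Neu1*, with no match in this window, had a higher ratio than any of the 10. No test was made of this difference, which rests on 1 library a group and on few genes.

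**Figure D4:**
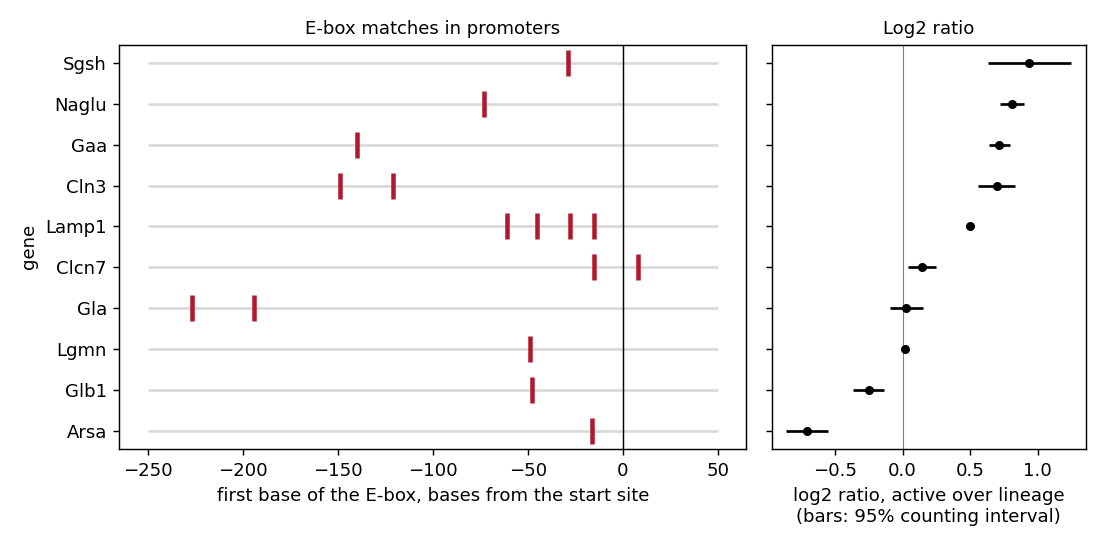
Left, position of the first base of each E-box in the promoters of 10 lysosomal genes, in bases from the start site (vertical line); right, log2 ratio of Cd11c-active over Cd11c-lineage with 95% counting intervals, in the same order of genes. *Lamp1* has 4 matches within 61 bases before the start site, and the genes run from *Sgsh* at 0.94 down to *Arsa* at -0.71.

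Other lysosomal genes were taken from a list of 56 symbols, of which 53 were measured and 38 had at least 1000 reads. Over the 53, 43 had a ratio above 0 and 10 below, with a median of 0.44, where 50.2% of all genes with at least 20 reads were above 0. Past 2-fold were 9 higher and 1 lower in Cd11c-active, against 44.9% of all genes of that depth in either direction, and 3 of the 9 had 0 reads in Cd11c-lineage. The lower one was *Mfsd8*, a lysosomal membrane protein of the major facilitator family (183 and 552 reads, ratio -1.40, -1.66 to -1.16). Among the higher ones were *Igf2r*, the cation-independent mannose 6-phosphate receptor that sorts hydrolases to the lysosome (567 and 82 reads, ratio 2.97, 2.64 to 3.33), and *Cln6*, a membrane protein of the endoplasmic reticulum (596 and 167 reads, ratio 2.02, 1.77 to 2.28). These 3 genes lay inside the range of their read classes and were chosen after their values were seen. Of the 38 with at least 1000 reads, 29 had a ratio above 0 and 9 below, with a median of 0.22. With library totals 24 were above 0 and the median was 0.08, and with the length and GC trend removed 28 and 0.21. Those of the 38 past 2-fold were *Dpp7*, a dipeptidyl peptidase (778 and 290 reads, ratio 1.61, 1.41 to 1.81), and *Naaa*, an amidase of N-acylethanolamines (831 and 394 reads, ratio 1.26, 1.09 to 1.44), both higher in Cd11c-active. That is 2 of 38, against 9.57% of all genes of that depth, and *Dpp7* alone lay outside the range of its class. Among those with the most reads were *Ctsa*, given above, *Scarb2*, the receptor that carries glucocerebrosidase (9556 and 11345 reads, -0.06, -0.10 to -0.02), and *Npc2*, a cholesterol carrier (9912 and 10772 reads, 0.07, 0.03 to 0.11). All 3 were close to level between the libraries.

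**Figure D5:**
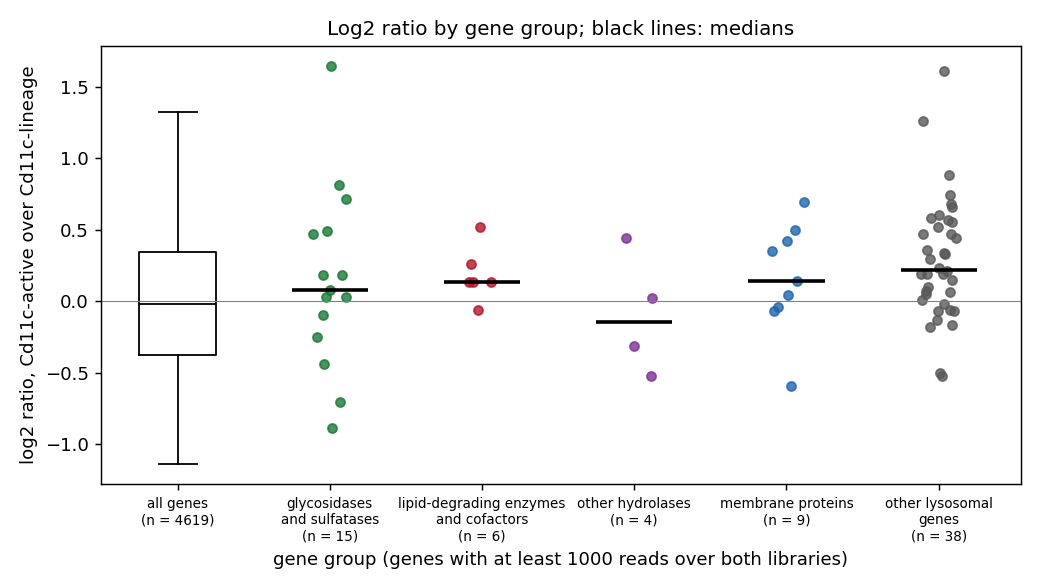
Log2 ratio of Cd11c-active over Cd11c-lineage for genes with 1000 or more reads in all: all 4619 genes as a box (quartiles, whiskers at the middle 95%), and single genes as points with the median as a black line for the 4 groups and for the other lysosomal genes. Medians are -0.02 for all genes, 0.08, 0.13, -0.15 and 0.14 for the groups from left to right, and 0.22 for the other lysosomal genes.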

How the data were processed

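The authors deposited raw counts of reads per gene for both libraries and a log2 fold change with a log2 average CPM, per the file headers. The submitters' processing notes name cutadapt 3.5, STAR 2.7.9a, featureCounts 1.6.3, edgeR 4.0.16 and the build GRCm39. Ribosomal RNA was depleted and libraries were stranded, per the labels' protocols; the annotation, the strand setting and the handling of duplicates are not given in the sources used here. From the values, the deposited fold change is relative to library totals, and the smallest sum over both libraries is 6 reads.

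Here, TMM (edgeR 4.0.16, R 4.3.3) gave scaling factors of 0.954 for the Cd11c-active library and 1.05 for the other. Log2 ratios used a prior count of 0.5 reads and intervals are exact Clopper-Pearson. With 1 library a group edgeR and DESeq2 could not be fitted for a test. Genes needed 20 reads over both libraries. The ratios and intervals were tested on simulated data with counting error only and unscaled library totals. That run covered neither TMM nor the spread between these libraries. Lengths and GC content came from the longest GENCODE transcript for GRCm38 (13499 genes matched, 99.6%), used for RPKM and the trend (4612 genes). Since the builds differ, coordinates are given for RefSeq promoters only. Reads are not independent molecules, so intervals and limits cover counting error only. No unmapped column was present (0).

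The genes, groups, lists and rules were chosen with earlier results of these data known. Named in full were the 3 genes with the most reads in each group, the highest and lowest ratio among those with at least 1000 reads, and any past 2-fold; of the other lysosomal genes, those past 2-fold with at least 1000 reads and the 5 with the most reads, of which some are not reported here. Further genes were described by their place in a pathway after their values were seen. Alternatives were library totals, DESeq2 1.42.0 size factors, TMM without mitochondrial, ribosomal and 7SK or 7SL genes, microglial marker reads as library size, a prior of 2 reads, correction for length and GC content, other read minimums and a 1.5-fold threshold. A search of protein sequences for sorting and sulfatase motifs was planned and not run. Python 3.11.15, numpy 2.4.6, scipy 1.17.1, pandas 2.3.3 and matplotlib 3.10.9 were used.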

Additional observations from a re-analysis of the deposited data

How the results depend on the processing

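No paired analysis was possible because each group has 1 library. DESeq2 size factors, TMM without mitochondrial, ribosomal and 7SK or 7SL genes, and a prior of 2 reads kept the counts past 2-fold and the sign of each group median. With library totals the medians were -0.0047 for all genes of the set, -0.060 for glycosidases and sulfatases, -0.0030 for the lipid group, -0.28 for other hydrolases and 0.0076 for membrane proteins, and 1 gene (*Manba*) was past 2-fold lower. With microglial marker reads as library size they were 0.012 for glycosidases and sulfatases, 0.069 for the lipid group and -0.21 for other hydrolases. With the length and GC trend removed the lipid group was at 0.016. The first 2 shifts are by construction equal for every gene. With at least 1000 reads 1 gene was past 2-fold higher, as *Tmem192* left. At 1.5-fold 7 of the 39 were higher and 4 lower, where 60.1% of all genes with at least 20 reads pass in either direction. With at least 1000 reads, a minimum added to this threshold after seeing the data, 4 were higher and 3 lower, or 20.6% of 34 genes, against 29.1% of all genes of that depth. The share of reads turned in order, to 3.11% in Cd11c-active and 2.95% in Cd11c-lineage, without mitochondrial, ribosomal and 7SK or 7SL genes. Of the 10 highest levels per length, 8 remained with the median transcript length and 9 with the coding length.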
